A study of Homo sapiens with 12 samples.

Results

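The 8 genes described here encode the core of the nuclear transport machinery: the exportins XPO1 and CSE1L, the importins KPNB1, TNPO1, IPO5 and IPO7, the adaptor KPNA2 and the small GTPase RAN. They were listed by Ensembl gene identifier. The rule sets no threshold on a measured value, although the list was drawn up with earlier results of these data known. All 8 were found among the 19580 genes of the table and among the 11510 genes tested. Footprint density on 7 of them was lower with the crosslinking treatment than in untreated cells, by 1.74-fold to 3.05-fold. The mean of RAN differed by less than the spread between replicates. Of all genes tested, 59% were called in this comparison, 18.4% lower and 40.6% higher (limma, adjusted p under 0.05). With each library centred on its median, RAN was lower as well (log2 -0.17, limma adjusted p = 0.049). Together the 8 genes took 0.346 ± 0.0174% of all reads with 4SU+UVA, against 0.680 ± 0.00455% in untreated cells (SD, n = 3 each).

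Cells were HAP1, an established near-haploid human line derived from KBM-7 leukaemia cells, of wild-type genotype in all groups. Libraries were made from ribosome footprints, the mRNA fragments that ribosomes shield from RNase I. In the group 4SU+UVA, cells had 5 uM 4-thiouridine (4SU) for 18 h and then 6 kJ per square metre of UVA light, with 30 min of recovery, whereas the groups 4SU and UVA had one agent each and the untreated group neither. 4SU is built into new RNA in place of uridine, and UVA makes it bond to protein that touches it. Each group held 3 biological replicates. Depth ran between 1899854 and 5832366 reads a library, and the number of reads behind a single value of the 8 genes was between 197 (TNPO1, 4SU+UVA replicate 2) and 8224 (KPNB1, untreated replicate 3). Values are RPKM, reads scaled to transcript length and to the library total. A lower value can stand for less mRNA or for fewer ribosomes on each mRNA. Because RPKM is relative to the library total, a lower value can also stand for more reads on other genes. No RNA measurement and no measure of absolute amounts was used here to separate these. In these bulk libraries, fewer cells with footprints and fewer footprints per cell cannot be told apart. The table names no genes beyond its identifiers, so the cell line could not be checked against marker genes.

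Proteins cross the nuclear pore in complex with receptors of the importin-beta family. An importin takes up its cargo in the cytoplasm and lets it go in the nucleus when RAN carrying GTP binds, and an exportin does the reverse, binding cargo and RAN-GTP together in the nucleus. KPNB1 (importin-beta) mostly carries cargo through an adaptor such as KPNA2, an importin-alpha that reads the classical nuclear localisation signal, and CSE1L returns the empty adaptor to the cytoplasm. The receptors are large proteins built of helical repeats, and RAN is a small one.

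The genes lie on different chromosomes of the human genome, with KPNB1 and KPNA2 both on chromosome 17. In RefSeq (GRCh38.p14) the exportin genes are XPO1 at chr2:61477849-61538612 and CSE1L at chr20:49046312-49096949. The importin genes are KPNB1 at chr17:47649919-47685505, TNPO1 at chr5:72816661-72914388, IPO5 at chr13:97953675-98024296 and IPO7 at chr11:9384652-9448127. KPNA2 spans chr17:68035735-68046854 and RAN chr12:130872066-130877678. The table gives 1 transcript for each gene. Its identifiers are ENSG00000082898.19 for XPO1, ENSG00000124207.17 for CSE1L, ENSG00000108424.11 for KPNB1, ENSG00000083312.19 for TNPO1, ENSG00000065150.21 for IPO5, ENSG00000205339.10 for IPO7, ENSG00000182481.10 for KPNA2 and ENSG00000132341.12 for RAN. The transcript length, worked out from the values, is 3479 nt for XPO1, 3550 nt for CSE1L, 6058 nt for KPNB1, 3028 nt for TNPO1, 3419 nt for IPO5 and 6162 nt for IPO7. In the same way, KPNA2 has 2456 nt and RAN 1530 nt, against a median of 2616.5 nt over the genes tested. All 8 are well covered by footprints, with a mean over the 12 libraries from 55.4 RPKM (IPO7) to 493.1 RPKM (RAN), at or above the level of 84.8% of the genes tested.

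XPO1, also called CRM1, exports proteins with a leucine-rich signal. Its density was 83.5, 83.5 and 93.5 RPKM with 4SU+UVA, 237.2, 231.2 and 231.3 RPKM with 4SU, 234.9, 250.8 and 234.9 RPKM with UVA, and 231.5, 231.6 and 247.8 RPKM in untreated cells. The 3 crosslinked libraries lay far below all the others, and the other 3 groups overlapped. The mean was 86.8 ± 5.75 RPKM with 4SU+UVA and 237 ± 9.38 RPKM in untreated cells (SD, n = 3 each), a 2.72-fold lower density (log2 -1.44, SE 0.06, limma adjusted p = 2.76e-10). Only 72 of the 11510 genes tested had a lower log2 change.

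CSE1L, the exportin of importin-alpha, stood at 92.2, 93.4 and 97.7 RPKM with 4SU+UVA, 234.9, 222.9 and 234.9 RPKM with 4SU, 261, 267 and 273.8 RPKM with UVA, and 267.7, 266.8 and 264.1 RPKM in untreated cells. It fell 2.81-fold with the combined treatment (log2 -1.49, SE 0.05, limma adjusted p = 4.61e-11). Unlike XPO1, every one of its 4SU libraries also lay below every untreated one, as in 10.1% of the genes tested.

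KPNB1, the receptor that carries KPNA2 and its cargo through the pore, had 139, 134.3 and 131.1 RPKM with 4SU+UVA, 235.8, 228.5 and 236 RPKM with 4SU, 246, 245.2 and 236.3 RPKM with UVA, and 235, 235.9 and 232.8 RPKM in untreated cells. Its mean of 135 ± 3.97 RPKM with 4SU+UVA was 57.5% of that in untreated cells (log2 -0.80, SE 0.05, limma adjusted p = 1.51e-08). The crosslinked libraries again formed a separate low group. All 3 UVA libraries of KPNB1 lay above all 3 untreated ones, as they did for 12.8% of the genes tested, and the difference did not pass (log2 0.05, SE 0.05, limma adjusted p = 0.879).

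TNPO1, or transportin, imports RNA-binding proteins with a proline-tyrosine signal, hnRNP A1 among them. It had 37.9, 34.2 and 42 RPKM with 4SU+UVA, 85.1, 86.1 and 91.9 RPKM with 4SU, 88.5, 97.3 and 88.8 RPKM with UVA, and 84.9, 81.5 and 93.3 RPKM in untreated cells. Crosslinked cells held 44% of the untreated mean (log2 -1.18, SE 0.08, limma adjusted p = 4.87e-08), and the other 3 groups overlapped.

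IPO5 imports ribosomal proteins and histones. Its libraries read 130, 120.1 and 127.4 RPKM with 4SU+UVA, 329.1, 331.1 and 347.9 RPKM with 4SU, 374.2, 384.2 and 378.2 RPKM with UVA, and 381.7, 387.5 and 385.3 RPKM in untreated cells. This was the largest fall of the 8 genes, 3.05-fold (log2 -1.61, SE 0.05, limma adjusted p = 1.93e-11), and 41 of the 11510 genes tested had a lower log2 change. The 4SU libraries lay below all UVA and untreated libraries and far above the crosslinked ones. Of the genes tested, 10.1% had every 4SU library below every untreated one, and the share for 4SU against UVA was not counted. The difference between 4SU and untreated cells was small, and its call depended on single libraries, as given below.

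IPO7, which shares cargo of that kind with IPO5, has the lowest mean RPKM of the 8, although TNPO1 had fewer reads in each library. It stood at 31.5, 33.3 and 36.6 RPKM with 4SU+UVA, 59.7, 57.6 and 63.5 RPKM with 4SU, 61.8, 62.8 and 65 RPKM with UVA, and 65.6, 61.3 and 65.7 RPKM in untreated cells. It fell 1.89-fold with 4SU+UVA (log2 -0.92, SE 0.07, limma adjusted p = 1.47e-07), with no overlap between crosslinked and other libraries and with overlap among the rest.

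KPNA2, the importin-alpha adaptor, had 225.3, 179 and 203.3 RPKM with 4SU+UVA, 236.1, 292.1 and 366.6 RPKM with 4SU, 356.7, 375.7 and 345.5 RPKM with UVA, and 363.4, 355.7 and 359.2 RPKM in untreated cells. It fell 1.78-fold with 4SU+UVA (log2 -0.83, SE 0.12, limma adjusted p = 3.61e-05). Its 4SU libraries were the most scattered of any gene and group here, with a coefficient of variation of 22%. At 65.7%, 81.2% and 102% of the untreated mean, they reached from just above the highest crosslinked library to just above the highest untreated one.

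RAN, the GTPase that gives transport its direction, was the most densely covered of the 8. It stood at 515.1, 432.4 and 527.4 RPKM with 4SU+UVA, 506.8, 499.5 and 466.1 RPKM with 4SU, 491.8, 511 and 500.9 RPKM with UVA, and 484.8, 492.3 and 489.5 RPKM in untreated cells. All 4 groups overlapped, and 4SU+UVA replicate 2, the shallowest library, gave the lowest value. The mean was 492 ± 51.7 RPKM with 4SU+UVA and 489 ± 3.78 RPKM in untreated cells (SD, n = 3 each), and the log2 change was 0.00 with a 95% interval of -0.14 to 0.14 (limma adjusted p = 0.976). This interval comes from a spread shared by all groups and does not measure the wider scatter with 4SU+UVA. The coefficient of variation of RAN was 10.5% there, against 0.774% in untreated cells. RPKM is relative to the library total, and the median gene moved by 0.23 in this comparison, so RAN lay 0.23 below it on the log2 scale. With each library centred on its median, RAN fell by 0.17 (limma adjusted p = 0.049). RefSeq lists 9 pseudogenes of RAN, 3 each of KPNA2 and TNPO1, 2 of IPO7, 1 each of IPO5 and KPNB1 and 0 of the exportins, and reads shared with such copies make these values uncertain.

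**Figure D1:**
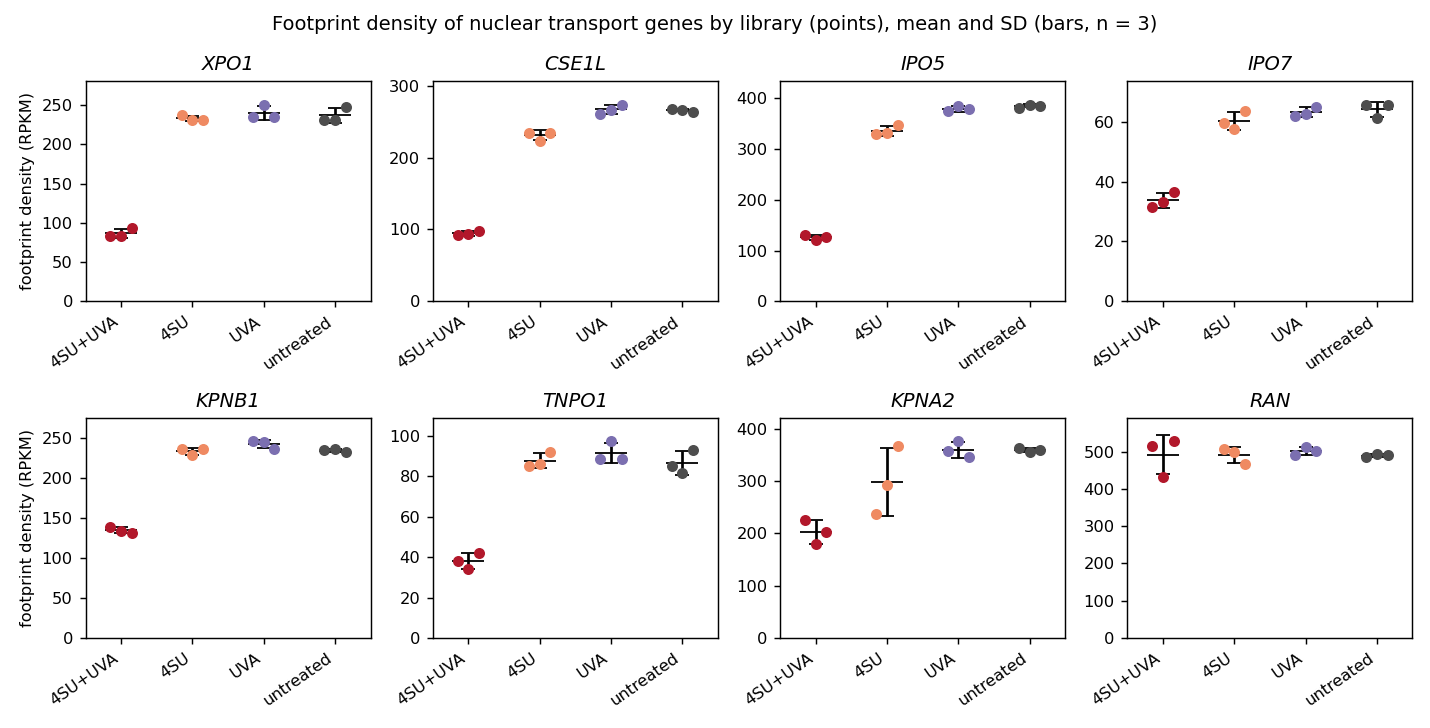
Footprint density (RPKM, axes from 0) of the 8 genes in the 12 libraries, with points for libraries and black bars for the group mean and SD (n = 3). In 7 genes the 3 4SU+UVA libraries lie below all other libraries, RAN is level at a mean of 489 to 501 RPKM in the 4 groups, and the 4SU libraries of KPNA2 spread between 236.1 and 366.6 RPKM.

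The 4SU+UVA and untreated groups differ in both agents, and their comparison gives the change in footprint density with the combined treatment. Of the 8 genes, 7 fell, none rose and RAN did not pass (limma, adjusted p under 0.05, n = 3 per group), where 59% of all genes tested were called, 18.4% lower and 40.6% higher. These 7 also had every crosslinked library below every untreated one, which was so for 20.2% of the genes tested, while 43.6% had every one above. The split over all genes depends on scaling, with 4674 higher and 2122 lower as given here and 3107 higher and 2888 lower after median centring. The median log2 change was -1.05 over the 8 genes and 0.23 over all genes tested. Relative to that median gene, the falls of the 7 ran from -1.03 (KPNB1) to -1.84 (IPO5). Sizes differed within the family. IPO5, CSE1L and XPO1 fell most, with 95% intervals of the log2 change between -1.72 and -1.32, while the intervals of KPNB1 (-0.90 to -0.69) and IPO7 (-1.07 to -0.76) lay wholly above these. TNPO1 stood between, at -1.3511 to -1.0035, and its interval overlapped that of IPO7 and, narrowly, that of XPO1. That of KPNA2 was the widest of the 7, at -1.085 to -0.5803. The differences between genes were not tested.

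**Figure D2:**
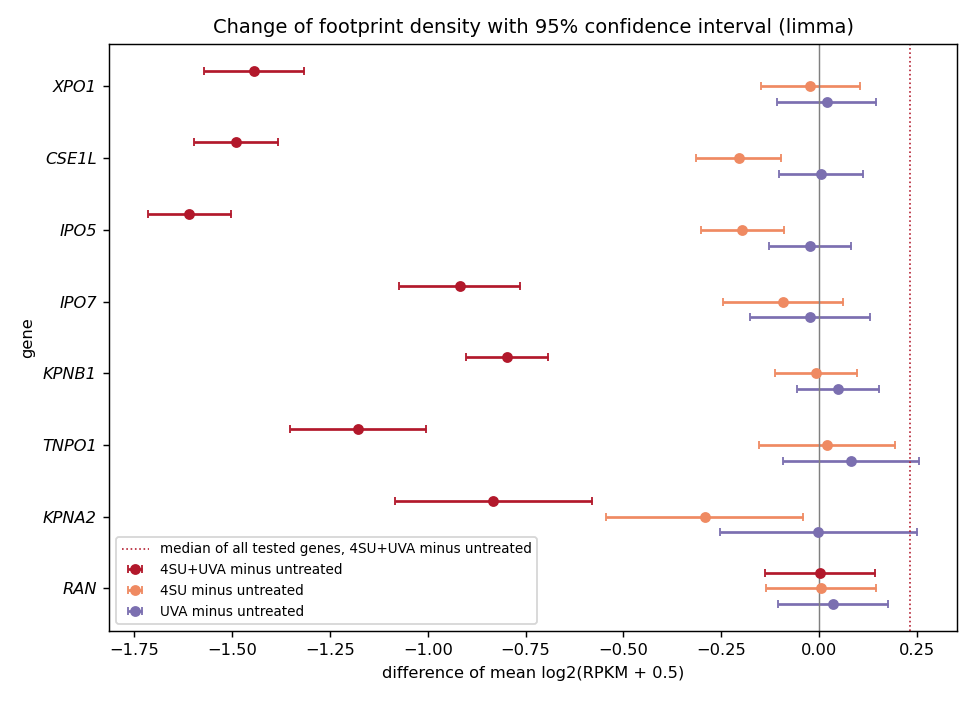
Difference of mean log2(RPKM + 0.5) for each gene (points) with its 95% confidence interval (limma, bars), in red for 4SU+UVA minus untreated, orange for 4SU minus untreated and violet for UVA minus untreated, with the median of all genes tested for the first as a dotted line at 0.23. The red points of 7 genes lie between -1.61 and -0.80, far left of the others, and all 3 points of RAN lie near 0.

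The proportions among the transport genes were compared within each library. RAN made up 21.7 ± 1.24% of the reads on the 8 genes with 4SU+UVA, against 11 ± 0.118% in untreated cells (SD, n = 3 each). The ratio of RAN to XPO1 density was 6.17, 5.18 and 5.64 in the crosslinked libraries, against 2.09, 2.13 and 1.97 in the untreated ones, with no overlap. This ratio restates the values of RAN and XPO1 given above. The share of gene pairs in the whole table that separate in this way was not counted. The density of the adaptor KPNA2 over that of its carrier KPNB1 was 1.5 ± 0.15 with 4SU+UVA, 1.28 ± 0.276 with 4SU, 1.48 ± 0.0443 with UVA and 1.53 ± 0.0217 in untreated cells (SD, n = 3 each). Its 4SU libraries spread widely, at 1.001, 1.278 and 1.553. CSE1L over KPNA2, the adaptor it exports, was 0.471 ± 0.0569 with 4SU+UVA, 0.8 ± 0.18 with 4SU, 0.745 ± 0.0426 with UVA and 0.741 ± 0.00821 in untreated cells (SD, n = 3 each). These ratios are described without a test, and since they are taken within a library they do not depend on its total. Their level depends on the transcript lengths behind the values, and only their change between groups does not. KPNB1, with the longer transcript, had more reads than KPNA2 in every library, at 8224 against 5146 in untreated replicate 3. The ratio of their densities therefore does not rank the translation of these genes.

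Light acting on cells that carried the nucleoside was read from 4SU+UVA against 4SU. The 7 genes fell here too (limma, n = 3 per group), where 44% of all genes tested were called, 19% lower and 25% higher. Their libraries did not overlap, as in 21.4% of the genes tested in that direction and 29.6% in the other, with a median log2 change of -1.01 over the 8 genes and 0.09 over all genes. XPO1 at -1.42 (SE 0.06, limma adjusted p = 5.54e-10) and IPO5 at -1.41 (SE 0.05, limma adjusted p = 1.25e-10) were the lowest of the 8. Their order turned under quantile normalization. With 1 library left out, XPO1 ran from -1.4765 to -1.3954 and IPO5 from -1.4379 to -1.3808, so the order is not settled. CSE1L followed at -1.29 (SE 0.05). For TNPO1 the difference was -1.20 (SE 0.08), for IPO7 -0.83 (SE 0.07) and for KPNB1 -0.79 (SE 0.05). KPNA2 fell by 0.54 (SE 0.12, limma adjusted p = 0.00198), and stood at -0.70 without 4SU replicate 1 and at -0.38 without 4SU replicate 3, still past the threshold. This SE comes from a spread shared by all groups and does not measure the wider scatter of the groups compared. The coefficient of variation of KPNA2 was 22% with 4SU and 11.4% with 4SU+UVA, against 4.26% with UVA and 1.08% in untreated cells. Over the alternatives its limma adjusted p was at most 0.0123. RAN stayed at 0.00 (SE 0.07).

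The nucleoside acting on irradiated cells was read from 4SU+UVA against UVA. Again 7 genes were lower and RAN lay at -0.03 (SE 0.07, limma adjusted p = 0.69), where 54.4% of all genes tested were called, 34.7% higher and 19.8% lower. Libraries of the 7 lay all below, as in 21.5% of the genes tested, with 37.9% all above. The log2 changes ran from -0.83 (KPNA2, SE 0.12) and -0.84 (KPNB1, SE 0.05) to -1.50 (CSE1L, SE 0.05) and -1.59 (IPO5, SE 0.05). This comparison shares its crosslinked libraries with both comparisons above, so the 3 are not independent of one another.

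4SU without light left most of the 8 genes near their untreated level. CSE1L was lower, with a mean of 231 ± 6.95 RPKM with 4SU and 266 ± 1.89 RPKM in untreated cells (SD, n = 3 each; log2 -0.21, SE 0.05, limma adjusted p = 0.0159). IPO5 was lower at 336 ± 10.3 RPKM with 4SU, against 385 ± 2.96 RPKM in untreated cells (SD, n = 3 each; log2 -0.20, SE 0.05, limma adjusted p = 0.0177). These 2 were also the ones whose libraries did not overlap between 4SU and untreated cells, where 14.4% of all genes tested were called, 3.12% lower and 11.3% higher. That split turns with scaling, with 1295 higher and 359 lower genes as given here and 640 higher and 1080 lower after median centring, where CSE1L, IPO5 and KPNA2 were called lower. Libraries lay all below in 10.1% of the genes tested and all above in 25.1%. KPNA2 had the lowest log2 change, -0.29 (SE 0.12), and did not pass (limma adjusted p = 0.112), and its value varied with the library left out. Without 4SU replicate 1 it was -0.14 (limma adjusted p = 0.445), and without 4SU replicate 3 it passed at -0.45 (limma adjusted p = 0.00608). XPO1 (-0.02, SE 0.06), KPNB1 (-0.01, SE 0.05), IPO7 (-0.09, SE 0.07), TNPO1 (0.02, SE 0.08) and RAN (0.00, SE 0.07) did not pass.

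The 2 calls for 4SU alone were small and depended on single libraries. None of the 8 genes passed without 4SU replicate 2, without untreated replicate 2 or without untreated replicate 3, and CSE1L alone passed without 4SU replicate 1. The log2 changes themselves stayed between -0.33 and -0.18 for CSE1L and between -0.32 and -0.18 for IPO5 over all alternatives.

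UVA without 4SU changed none of the 8 genes past the threshold. All log2 changes against untreated cells lay between -0.02 (IPO7) and 0.08 (TNPO1), none had an unadjusted limma p under 0.05, and 0.652% of all genes tested were called in this comparison, 0.278% higher and 0.374% lower. None of the 8 had every UVA library below every untreated one, against 3.93% of the genes tested. KPNB1 had every one above, as did 12.8% of the genes tested. A weighted fit to the whole reads (limma's voom) also called 0 of the 8. The mean of XPO1 was 240 ± 9.2 RPKM with UVA and 237 ± 9.38 RPKM in untreated cells (SD, n = 3 each). For IPO5, CSE1L and KPNB1, the most precisely measured, the 95% interval of the log2 change reached no further than -0.13 and 0.15. It was widest for KPNA2, at -0.25 to 0.25, and ran from -0.09 to 0.26 for TNPO1.

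Whether both agents together did more than the sum of their separate effects was tested as an interaction, which takes the change by UVA under 4SU less the change by UVA alone. It passed for 7 of the 8 genes, all below the sum, where 24.8% of all genes tested were called, 14.1% below the sum and 10.7% above it. For XPO1 the separate effects added to 0.00 and the measured change was -1.44 (interaction -1.44, SE 0.08, limma adjusted p = 6.57e-08). IPO5 had an interaction of -1.39 (SE 0.07), CSE1L of -1.29 (SE 0.07) and TNPO1 of -1.28 (SE 0.115). That of KPNB1 was -0.84 (SE 0.07) and that of IPO7 -0.80 (SE 0.10). KPNA2 passed narrowly at -0.54 (SE 0.17, limma adjusted p = 0.029, with 0.00181 to 0.0745 over the alternatives). It did not pass without 4SU+UVA replicate 2, 4SU replicate 2, UVA replicate 1 or 2, or untreated replicate 2 or 3. RAN lay at -0.04 (SE 0.09, limma adjusted p = 0.809).

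**Figure D3:**
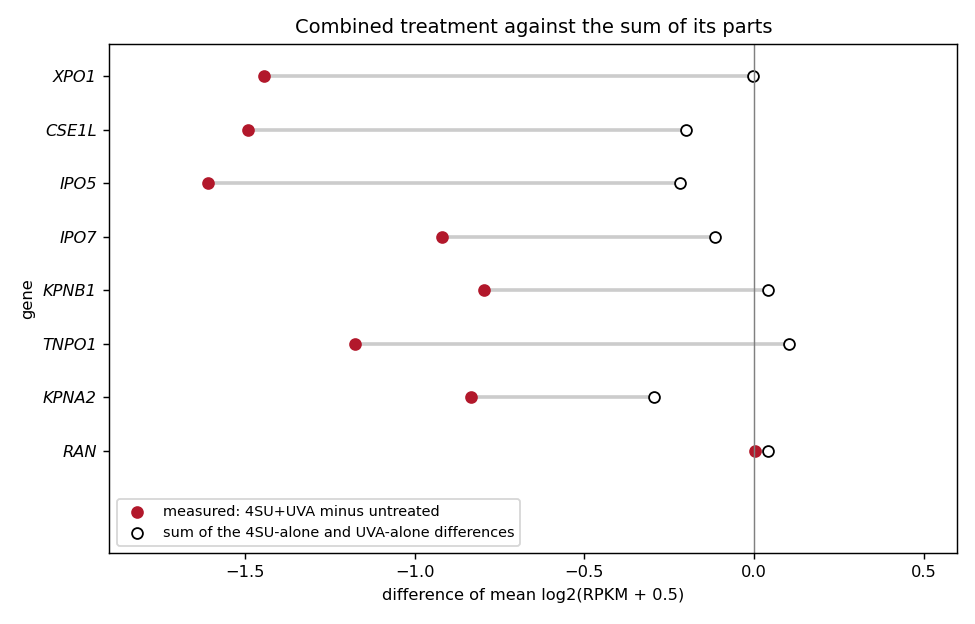
For each gene, the measured log2 difference of 4SU+UVA minus untreated (red) and the sum of the 4SU-alone and UVA-alone differences (open circles), both as differences of mean log2(RPKM + 0.5). The sums lie between -0.29 (KPNA2) and 0.10 (TNPO1), the measured values of 7 genes between -1.61 and -0.80, and the 2 points of RAN close to each other.

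In the order of group means, 4SU+UVA was lowest for 7 genes and the step up to the next group was free of overlap in each. That next group was 4SU for XPO1, CSE1L, KPNB1, IPO5, IPO7 and KPNA2, and untreated for TNPO1. Among the other 3 groups, neighbours in the order overlapped except 4SU and untreated for CSE1L, 4SU and UVA for IPO5, and untreated and UVA for KPNB1. For RAN every pair of neighbours overlapped. Taken singly, 4SU+UVA libraries lay all below untreated ones in 20.2% of the genes tested, below 4SU in 21.4% and below UVA in 21.5%. Libraries with 4SU lay all below untreated ones in 10.1%, and those with UVA all above untreated ones in 12.8%. The shares for lying below every other group at once, and for 4SU against UVA, were not counted.

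Size of change and transcript length had no single order within the family. RAN, with a log2 change of 0.00 as reported and -0.17 after median centring, has the shortest transcript of the 8 by the length worked out from the values (1530 nt). KPNA2 has the next (2456 nt). The 4 transcripts of 3028 to 3550 nt (TNPO1, IPO5, XPO1 and CSE1L) fell 2.26-fold to 3.05-fold, while KPNB1 and IPO7, with 6058 and 6162 nt, fell 1.74-fold and 1.89-fold. IPO7 at a mean of 55.4 RPKM and KPNB1 at 211.3 RPKM had similar folds at different densities. With 8 genes these are descriptions only, and the lengths worked out are not lengths of the coding part alone.

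**Figure D4:**
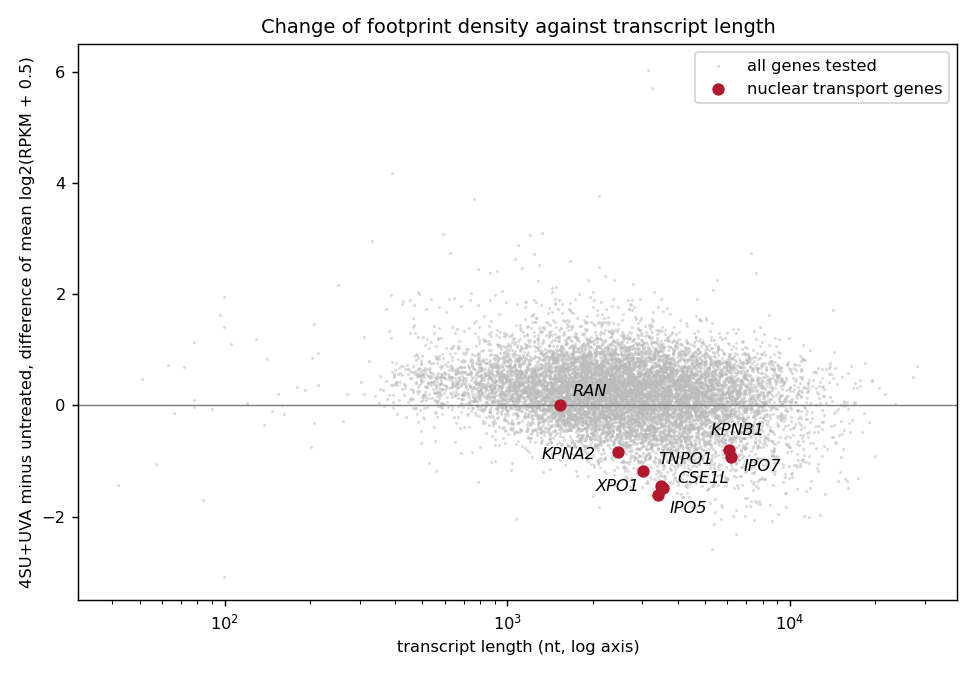
Log2 change of 4SU+UVA minus untreated against the transcript length worked out for each gene from its values (nt, log axis), with grey points for all 11510 genes tested and red points for the 8 transport genes. RAN (1530 nt) lies at 0.00, IPO5 (3419 nt) lowest of the 8 at -1.61, and KPNB1 and IPO7 (6058 and 6162 nt) higher at -0.80 and -0.92.

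Over the 12 libraries the 6 receptors ran closely together, with Pearson r of 0.977 (IPO7 with KPNB1) to 0.998 (CSE1L with IPO5) between their log2 values. KPNA2 correlated with them at 0.861 to 0.903 and RAN at 0.067 to 0.157. The points share libraries and totals, and the 3 crosslinked libraries were the low ones for all genes but RAN. Among the genes with a mean of at least 20 RPKM, TNPO1 was the 9th closest to XPO1 and IPO5 the 17th closest, of 3934 ranked. The closest gene outside the 8 was ENSG00000180182.11 (r = 0.998), with a log2 change of -0.94 for 4SU+UVA minus untreated. For KPNA2 it was ENSG00000134697.13 (r = 0.99), with a log2 change of -0.91, while the nearest receptor, IPO5, ranked 470. The 3 genes closest to RAN had an r of 0.829 to 0.869, and none of them was called in the same comparison. These identifiers carry no name in the sources used here.

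Start-site sequences from RefSeq (GRCh38.p14) were matched for 7 of the 8 genes, KPNB1 being the one not analysed here. The 60 bases before a transcript start are shown for these 7 as a description, and a link to the footprint changes was not tested. Capitals mark a GC box (GGGCGG) or a CCAAT box (CCAAT) on either strand, searched separately, so that a base may belong to both. XPO1 and TNPO1 each have 2 starts listed, of which the first was taken. For XPO1 this start, at position 61538356, lies 256 bases inside the outer edge of the gene given above, and for the other 6 it is that edge.
XPO1 (chr2:61538357-61538416, minus strand): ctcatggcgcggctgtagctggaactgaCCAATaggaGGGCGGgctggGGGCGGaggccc
CSE1L (chr20:49046252-49046311, plus strand): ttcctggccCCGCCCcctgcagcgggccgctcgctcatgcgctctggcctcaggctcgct
TNPO1 (chr5:72816601-72816660, plus strand): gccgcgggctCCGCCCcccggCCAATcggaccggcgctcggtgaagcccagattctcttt
IPO5 (chr13:97953615-97953674, plus strand): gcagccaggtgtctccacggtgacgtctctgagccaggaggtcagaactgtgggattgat
IPO7 (chr11:9384592-9384651, plus strand): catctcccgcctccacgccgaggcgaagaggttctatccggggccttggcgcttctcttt
KPNA2 (chr17:68035675-68035734, plus strand): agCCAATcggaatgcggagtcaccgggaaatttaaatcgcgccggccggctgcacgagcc
RAN (chr12:130872006-130872065, plus strand): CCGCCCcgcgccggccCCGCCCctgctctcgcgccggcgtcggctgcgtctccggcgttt
In the 250 bases before the start, 5 of the 7 held a CCAAT box and 5 a GC box, where 33.0% and 42.3% of 27305 genes did at their first listed start. RAN had 6 GC boxes and no CCAAT box there, and IPO7 neither. No measurement of transcription was used here, and a match is a description of the letters only.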

How the data were processed

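Ribosome footprints of 12 HAP1 libraries were analysed, 3 biological replicates in each of 4 groups, with group and replicate taken from the sample titles. The authors deposited 1 table of RPKM values with Ensembl gene and transcript identifiers. The submitters' processing notes name STAR 2.7.10a and the build hg38. How reads were counted, filtered and assigned between near-identical copies, and with which annotation, is not stated in these sources.

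RPKM steps gave back library totals, transcript lengths and the reads behind each value. With them, 100.0% of positive values came out whole (tolerance 0.001 reads), as the search for them requires. Listed genes held 99.93% to 99.95% of each total. Log2(RPKM + 0.5) was fitted with limma 3.58.1 (R 4.3.3), using lmFit with 1 mean per group over all 12 libraries and eBayes with its trend option. A gene entered if 3 or more libraries reached 1 RPKM. Tests were two-sided, Benjamini-Hochberg adjusted over the 11510 genes, with a threshold of 0.05, and the fit was tested on simulated data. Log2 changes are differences of mean log2(RPKM + 0.5), so folds need not equal ratios of mean RPKM.

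The 8 genes and the gene lists were chosen with earlier results of these data known. All 8 genes were named whatever their values, and the genes most like XPO1, KPNA2 and RAN were taken by Pearson r. Lists of other transport receptors, Ran cofactors, nucleoporins and cell markers were not counted, because 0 genes of the reference table carry an Ensembl identifier; symbols of the 8 came with the choice of genes. Alternatives were another pseudocount, filter, scaling, variance model, set of groups and replicate block, and leaving out each library. A voom fit to the recovered reads was added after seeing the data. Counts behind the values come from PCR-amplified libraries, with no molecular identifiers described.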

Additional observations from a re-analysis of the deposited data

Results flagged for a closer look

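For 7 genes the effect of UVA differed between cells with and without 4SU, by the interaction in limma over the 12 libraries. They are named because they passed, where 24.8% of all genes tested were called, 14.1% below the sum and 10.7% above it. UVA effects with 4SU minus those without it, as log2 differences, were -1.4422 for XPO1, -1.2905 for CSE1L, -1.3913 for IPO5, -0.8036 for IPO7, -0.8376 for KPNB1, -1.2794 for TNPO1 and -0.5392 for KPNA2. In each, the 3 libraries with both agents lay below the 3 with 4SU, as in 21.4% of the genes tested. The same libraries enter the interaction, so this is no separate evidence. The call of KPNA2 was narrow, with a limma adjusted p of 0.00181 to 0.0745 over the alternatives. Groups of 3 libraries are too small to be searched for single outlying libraries.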

How the results depend on the processing

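The falls of the 7 genes in the 3 comparisons with 4SU+UVA passed under every alternative run. Of 1000 recomputed values for single genes, 945 kept their direction and side of the threshold, 34 changed sign, 18 lost their call and 3 gained one. For 4SU minus untreated, 2 genes passed as reported, 0 without the variance trend, 3 under median centring and voom (KPNA2 added) and 0 to 3 with 1 library left out. For the interaction 7 passed, 6 without a filter, under median centring or without the trend (KPNA2 lost, adjusted p 0.0647, 0.0588 and 0.0745), and 6 to 7 with 1 library left out. Causes were not tested.

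Median centring turned the sign of RAN (-0.1683) for 4SU+UVA minus untreated, of TNPO1 (-0.1057) and RAN (-0.1213) for 4SU, and of XPO1 (-0.0618), CSE1L (-0.076), KPNB1 (-0.0335) and RAN (-0.0456) for UVA. Quantile normalization did so for RAN (-0.0689) for 4SU+UVA minus untreated, TNPO1 (-4e-04) for 4SU, and XPO1 (-0.0144) and CSE1L (-0.0094) for UVA. Voom did so for RAN (0.0131) for 4SU+UVA minus 4SU and KPNA2 (9e-04) for UVA. With 1 library left out, RAN ran from -0.0507 to 0.0924 for 4SU+UVA minus untreated, -0.0554 to 0.0876 minus 4SU, -0.0866 to 0.0565 minus UVA, -0.0913 to 0.0518 for the interaction and -0.0189 to 0.0415 for 4SU. XPO1 ran from -0.0386 to 0.0103, KPNB1 from -0.0151 to 0.0082 and TNPO1 from -0.0219 to 0.0751 for 4SU. For UVA, XPO1 ran from -0.0119 to 0.0522, CSE1L from -0.0122 to 0.0224 and KPNA2 from -0.034 to 0.0265. None of these changes of sign passed except RAN under median centring (limma adjusted p = 0.049).

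Over all genes, 7.73% were called for 4SU without a filter (14.4% as reported), 0.282% for UVA without a filter, 0.365% with quantiles and 0.235% without the trend (0.652% as reported), and 16.1% for the interaction without a filter (24.8% as reported). Scaling moved the split of calls. Higher and lower calls numbered 3107 and 2888 under median centring and 3011 and 2910 with quantiles for 4SU+UVA minus untreated (4674 and 2122 as reported), 3138 and 2683, then 2900 and 2820, minus UVA (3989 and 2278 as reported), and 2360 and 2599 with quantiles minus 4SU (2877 and 2185 as reported). For 4SU they were 640 and 1080, then 678 and 497 (1295 and 359 as reported), and for UVA 19 and 48, then 22 and 20 (32 and 43 as reported). Same-numbered libraries correlated at -0.045 to 0.182, over 0.1 in 3 of 18 pairs, and a library's closest match in another group had the same number in 7 of 36 cases, so the numbers were taken as names; the replicate block left the counts of genes called at 7, 7, 7, 2, 0 and 7.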
